A study of Mus musculus with 4 samples.

Results

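Chromatin accessibility was described at 10 mouse genes whose products are non-collagen components of the extracellular matrix or mark mesenchymal cells: Fn1, Tnc, Thbs1, Sparc, Spp1, Tgfbi, Postn, Vcan, Lox and Vim. The genes were chosen by name, with earlier results of these data known. For each gene, every FAIRE-positive region that overlapped the gene body or the 50 kb upstream of its transcription start site (TSS) was taken, in mouse genome build mm10 with GENCODE gene symbols. The 10 loci, which cover 874.7 kb, held 41 of the 35796 regions that remained after overlapping regions of all libraries had been merged. Classed by their middle, 10 of these 41 regions lay at a promoter (within 2 kb of a TSS of the gene), 3 in an intron and 28 upstream. Outside promoters, no region had its middle in an exon of its gene. Overlap of promoter regions with exons was not examined.

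FAIRE-seq sequences DNA that remains free of crosslinked protein and thereby maps accessible chromatin. The cells were EpRas, mammary gland epithelial cells of mouse that express active H-Ras, so that all 4 groups carry active H-Ras and none stands for the untransformed parent cells. Cells were fixed on day 4. One group had received a control siRNA (siControl) and was left untreated, and another had received siControl and TGF-β3 at 1 ng/ml. The remaining groups had received the same TGF-β treatment with either of 2 siRNA sets (siEtv4/5 set 1 and set 2) directed at Etv4 and Etv5, which encode ETS family transcription factors. No siEtv4/5 group without TGF-β was analysed here, so an siRNA effect in untreated cells could not be seen. Each group held 1 list of regions. The study describes biological replicates, which each list may combine, and the lists give no spread between them. All values below are therefore descriptions of 4 lists, with no test of a condition. In each list a region carries the fold enrichment given by the authors, the signal at its summit over the local background, and the number of DNA fragments at the summit was recovered from this value and the authors' p-value. The siRNAs act on transcripts and these libraries hold no RNA, so that neither the knockdown nor the expression of the 10 genes could be read from them.

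Epithelial cells that undergo epithelial-mesenchymal transition (EMT) under TGF-β begin to secrete and remodel an interstitial type of matrix. Fibronectin forms the fibrils on which other components assemble, matricellular proteins such as tenascin-C, thrombospondin-1, SPARC, osteopontin and periostin modify adhesion without building the scaffold themselves, versican is a large hydrated proteoglycan, and lysyl oxidase crosslinks collagen and elastin. Vimentin is the intermediate filament of mesenchymal cells and is used with fibronectin as a marker of EMT. Accessible regions at promoters and at distant enhancers are where transcription factors such as AP-1, ETS, RUNX, TEAD and SMAD proteins can bind.

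The lists held 22247 regions in untreated siControl cells, 28754 in TGF-β-treated siControl cells, 22516 with set 1 and 14925 with set 2, and values that follow each other below keep this order of libraries. The estimated depth was 15.3 to 20.7 M reads, and the library of set 2 was the deepest and had the shortest list. The lists therefore differ in length in ways that depth does not follow, and counts are given below also at equal list length, with the 14925 most significant regions of every library. Promoter regions were called at 9 of 11 genes of mammary epithelium (such as Epcam, Krt8 and Cdh1) in the untreated library, at 5 in TGF-β-treated siControl, at 5 with set 1 and at 4 with set 2. Over all protein-coding genes the shares were 36.1%, 38.1%, 34.2% and 27.3%. Regions of any class in these 11 loci numbered 40, 50, 38 and 30, with more in TGF-β-treated siControl than untreated at 6 genes and fewer at 1. None of 4 leukocyte genes had a promoter region in any library. Of 4 endothelial genes, 1 had a promoter region in TGF-β-treated siControl and none in the others, and of 6 fibroblast genes 1 had one in the untreated library and 1 with set 2.

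The sequences of 8 of the 41 regions are given here because the results below turn on them. They comprise the promoter regions of Fn1 and Vim, the strongest region outside promoters, by fold enrichment in any library, at Fn1, Tgfbi and Vcan, the Sparc region nearest to its TSS among those called in all 4 libraries, and regions upstream of Tnc and Vim with AP-1 sites. The Sparc, Tnc, Vim and promoter regions were chosen after their values were seen. Each sequence comes from the RefSeq assembly GRCm38, covers at most 300 bases around the summit and is written 5′ to 3′ on the strand of its gene. The Fn1 promoter sequence ends at the base before the TSS. Capitals mark matches, on either strand, to AP-1 (TGANTCA), ETS (CNGGAAG), RUNX (TGTGGT) and TEAD (GGAATG) motifs.
Fn1 promoter, chr1:71653201-71653451, minus strand: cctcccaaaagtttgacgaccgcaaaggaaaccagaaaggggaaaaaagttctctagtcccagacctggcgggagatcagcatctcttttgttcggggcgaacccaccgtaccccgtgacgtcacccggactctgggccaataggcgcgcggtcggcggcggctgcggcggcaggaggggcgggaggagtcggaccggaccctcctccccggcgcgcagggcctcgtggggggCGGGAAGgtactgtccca
Fn1, 38.5 kb upstream, chr1:71691520-71691819, minus strand: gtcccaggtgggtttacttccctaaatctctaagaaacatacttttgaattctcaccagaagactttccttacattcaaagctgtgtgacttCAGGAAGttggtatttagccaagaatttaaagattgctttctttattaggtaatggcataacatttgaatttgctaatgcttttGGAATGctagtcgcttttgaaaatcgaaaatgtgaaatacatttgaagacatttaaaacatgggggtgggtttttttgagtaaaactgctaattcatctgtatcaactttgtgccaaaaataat
Tnc, 40.9 kb upstream, chr4:64087671-64087970, minus strand: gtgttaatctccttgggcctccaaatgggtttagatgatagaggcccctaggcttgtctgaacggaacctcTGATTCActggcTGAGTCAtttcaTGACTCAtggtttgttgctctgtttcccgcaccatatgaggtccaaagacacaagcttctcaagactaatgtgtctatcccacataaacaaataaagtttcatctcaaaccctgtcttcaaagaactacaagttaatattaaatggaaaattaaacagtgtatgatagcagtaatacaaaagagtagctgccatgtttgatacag
Sparc, 5.1 kb upstream, chr11:55428125-55428424, minus strand: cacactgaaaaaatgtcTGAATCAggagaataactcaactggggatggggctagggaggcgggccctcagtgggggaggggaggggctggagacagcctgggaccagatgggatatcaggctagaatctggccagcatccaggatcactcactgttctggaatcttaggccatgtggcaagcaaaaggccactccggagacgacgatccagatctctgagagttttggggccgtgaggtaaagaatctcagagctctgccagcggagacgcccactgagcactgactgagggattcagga
Tgfbi, 26.7 kb upstream, chr13:56582696-56582995, plus strand: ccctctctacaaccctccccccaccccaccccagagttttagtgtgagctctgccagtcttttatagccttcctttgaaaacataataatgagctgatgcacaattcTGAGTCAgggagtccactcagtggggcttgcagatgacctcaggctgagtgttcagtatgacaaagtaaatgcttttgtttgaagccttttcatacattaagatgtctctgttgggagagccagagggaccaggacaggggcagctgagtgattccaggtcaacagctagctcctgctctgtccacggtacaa
Vcan, 36.9 kb upstream, chr13:89779276-89779575, minus strand: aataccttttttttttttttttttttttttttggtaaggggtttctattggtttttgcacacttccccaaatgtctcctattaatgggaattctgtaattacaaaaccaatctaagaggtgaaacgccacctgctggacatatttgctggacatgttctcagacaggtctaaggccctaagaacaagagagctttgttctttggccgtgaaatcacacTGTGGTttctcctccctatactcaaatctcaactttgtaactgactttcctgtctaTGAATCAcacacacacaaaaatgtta
Vim, 15.2 kb upstream, chr2:13558590-13558889, plus strand: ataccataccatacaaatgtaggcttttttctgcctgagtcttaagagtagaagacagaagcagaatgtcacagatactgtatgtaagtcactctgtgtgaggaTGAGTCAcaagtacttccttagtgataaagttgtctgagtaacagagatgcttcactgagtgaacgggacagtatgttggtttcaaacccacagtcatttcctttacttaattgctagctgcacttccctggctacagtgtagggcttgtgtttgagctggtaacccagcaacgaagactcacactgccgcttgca
Vim promoter, chr2:13573457-13573756, plus strand: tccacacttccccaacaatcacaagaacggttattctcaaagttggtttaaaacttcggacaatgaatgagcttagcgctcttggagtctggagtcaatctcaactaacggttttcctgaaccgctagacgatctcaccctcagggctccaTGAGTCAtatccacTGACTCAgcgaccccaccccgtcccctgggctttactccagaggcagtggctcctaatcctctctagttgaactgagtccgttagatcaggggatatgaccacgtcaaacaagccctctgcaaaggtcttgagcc

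In the 10 loci together, 18 regions were called in untreated siControl cells, 39 in TGF-β-treated siControl cells, 24 with set 1 and 15 with set 2. They made up 0.0809%, 0.136%, 0.107% and 0.101% of the lists. Upstream regions were the most frequent class in every library, with 13, 26, 18 and 11 regions in the same order. Promoter regions numbered 4, 10, 5 and 3, and intronic regions 1, 3, 1 and 1. Per 100 kb, the loci held 2.06 regions untreated, 4.46 with TGF-β, and 2.74 and 1.71 in the siRNA libraries of set 1 and set 2, where the mean over the same windows of all 21938 protein-coding genes was 1.66, 2.0, 1.62 and 1.14. Pooled, the loci thus had more regions per length than this mean in each list, with the widest gap in TGF-β-treated siControl. Not every gene did so. Thbs1, Postn, Lox and Vcan lay below the mean untreated and with set 1, and Vcan also in TGF-β-treated siControl. With set 2, Spp1, Tgfbi, Lox and Vcan held no region. The other genes lay above the mean in each case. At equal list length the totals were 15, 17, 11 and 15 regions, and the rise with TGF-β was from 15 to 17 instead of from 18 to 39.

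**Figure D1:**
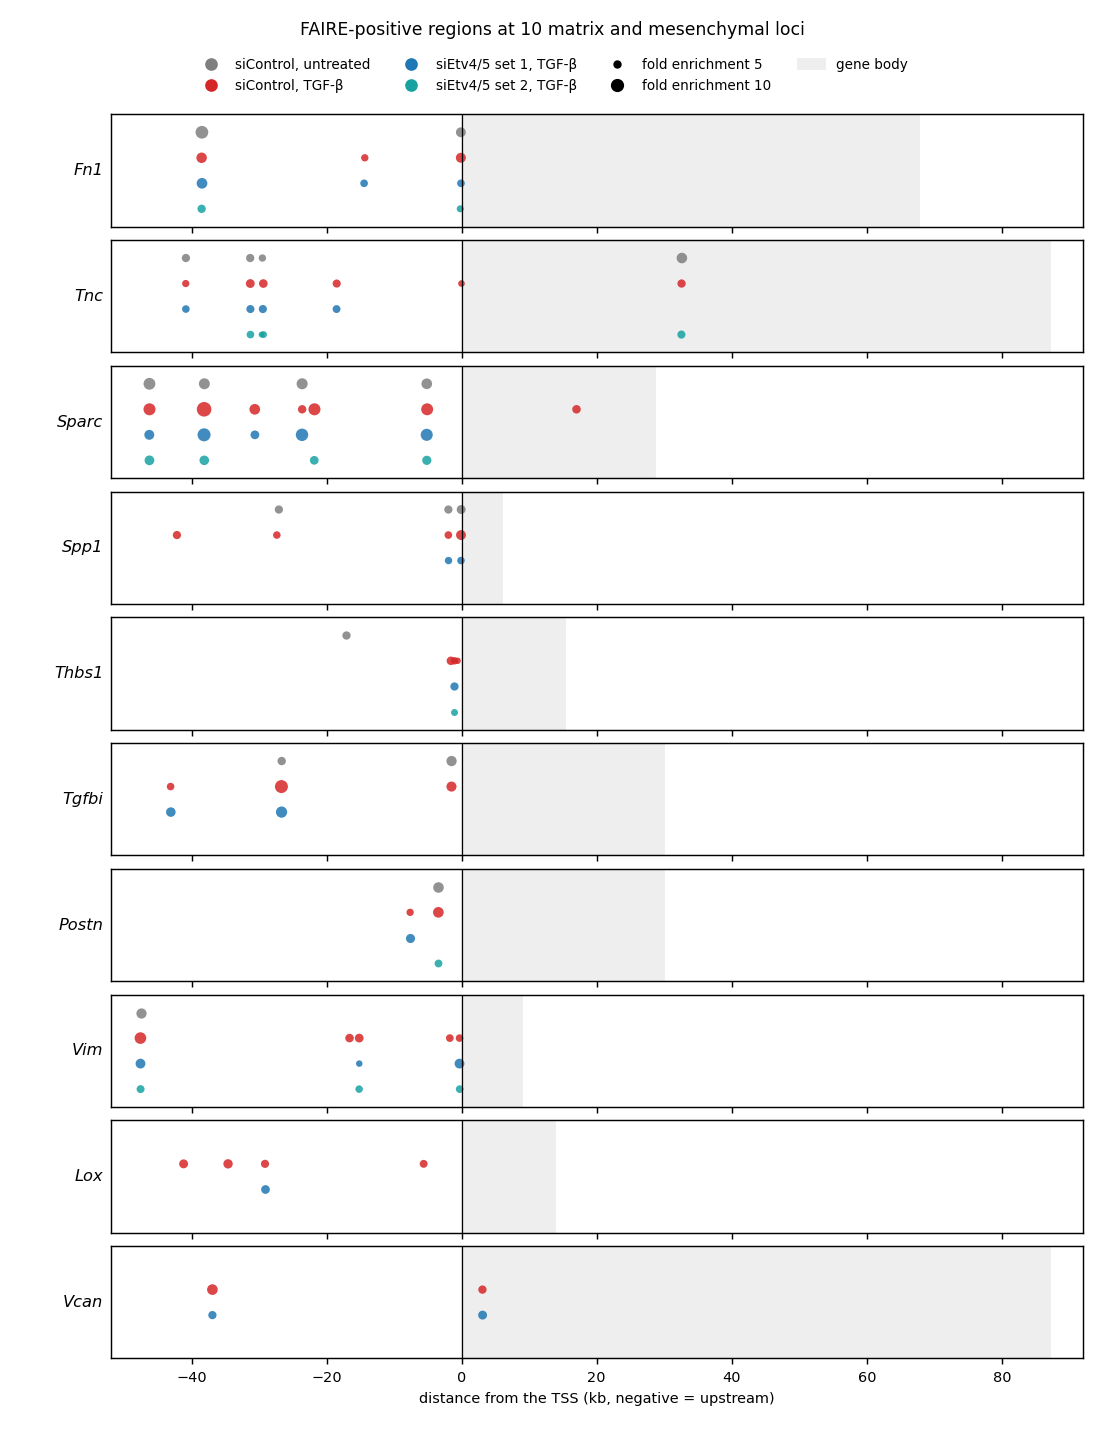
Position of each FAIRE-positive region at the 10 loci, as distance in kb from the TSS (x axis, negative is upstream), with 1 panel per gene, 1 line of points per library, point area rising with the fold enrichment and the gene body shaded. Tnc and Sparc held regions in all 4 libraries, while Lox and Vcan held none in the untreated library and none with set 2.

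At least 1 region was called at 8 of the 10 genes in the untreated library, where 65.2% of all protein-coding loci held one. It was called at all 10 with TGF-β (68.3%), at all 10 with set 1 (64.2%) and at 6 with set 2 (55.2%). A promoter region was called at 3 of the 10 genes in the untreated library, at 6 in TGF-β-treated siControl, at 4 with set 1 and at 3 with set 2. Over all protein-coding genes these shares were 36.1%, 38.1%, 34.2% and 27.3%. Fn1 was the only member with a promoter region in all 4 libraries. Spp1 and Tgfbi had one in both siControl libraries, Thbs1 and Vim in the 3 libraries with TGF-β, and Tnc in TGF-β-treated siControl only. Spp1 also had one with set 1. Sparc, Postn, Lox and Vcan had no promoter region in any library, and their accessible chromatin lay 3.1 kb or more from the 5′ end of the gene.

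Fn1, which encodes fibronectin, held 2 regions untreated and with set 2, and 3 in both other libraries. Its promoter region (chr1:71653163-71653478) lay 120 bp from the TSS and within an exon of the antisense gene Apol7d, whose TSS is 15 bp away, so that the accessibility of the 2 starts cannot be told apart. The summit held 30 fragments untreated, 33 after TGF-β and 24 with either siRNA set. Fold enrichment was 8.38, 8.49, 6.12 and 5.49 in the order of libraries given above. The promoter was thus called in all 4 libraries, with higher values in the siControl than in the siRNA libraries. On the scale of summit fragments per M reads (FPM), the log2 ratio of set 1 over TGF-β-treated siControl was -0.55, with a 95% interval of -1.37 to 0.26 that covers counting error only. For TGF-β over untreated it was 0.05 (-0.71 to 0.81). For set 2 it was -0.80, with an interval from -1.63 to just below 0. The genome median of the set 2 ratio was -0.67, which lies inside this interval and each set 2 interval given below for a single region. The printed sequence of this promoter is rich in GC (66.1%) and CpG (25 in 251 bases) and carries an ETS match close to the TSS.

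The strongest Fn1 region (chr1:71691499-71691818) lay 38.5 kb upstream, with no annotated TSS within 18.4 kb, and was called in all 4 libraries. It had a fold enrichment of 11.5 and 32 fragments untreated, and 9.02 and 29 fragments in TGF-β-treated siControl. With set 1 it stood at 9.24 and 33 fragments, and with set 2 at 6.78 and 23 fragments. By fold enrichment, though not by fragments, it was the highest of the untreated member regions. None of its FPM ratios had an interval off 0. A region 14376 bp upstream (chr1:71667406-71667747) was called with TGF-β and with set 1, with 16 fragments in each, and not in the other libraries. Scaled to the untreated depth, 16 fragments would be 15.0, and 95% of untreated regions at a similar local background held 16 or more. An equally strong region would thus fall below the number usual there, so its absence from the untreated list was not read as a difference.

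Tnc encodes tenascin-C, a matricellular hexamer of wound and tumour stroma, and held 4, 6, 4 and 4 regions in the order of libraries given above. The number with set 2 includes a second call inside the merged region at 29.4 kb. A pair of regions 31.3 kb and 29.4 kb upstream (chr4:64078133-64078493 and chr4:64076205-64076722) was called in all 4 libraries. Both lie in introns of the transcripts 8030451A03Rik and Gm11216, and the TSS of Gm11216 is 930 bp from the nearer region. The region at 31.3 kb held 33, 46, 38 and 33 fragments in the order of libraries given above. The region at 29.4 kb held 28, 44, 38 and 28 fragments in that order. Per M reads, these were 2.16, 2.83, 2.2 and 1.6 at 31.3 kb and 1.83, 2.7, 2.2 and 1.36 at 29.4 kb. On this scale both were highest in TGF-β-treated siControl and lowest with set 2. With set 2 over TGF-β-treated siControl, the log2 FPM ratio was -0.82 (-1.51 to -0.15) at 31.3 kb and -1.0 (-1.73 to -0.28) at 29.4 kb. The background around the summit at 31.3 kb moved in the same way. It stood at 20.8 reads per 10 kb and M reads untreated, 25.3 with TGF-β, and 21.5 and 17.8 in the set 1 and set 2 libraries. The genome average was 5.35, and the medians around all called regions were 8.37, 8.3, 8.1 and 8.13 in the order of libraries. These 10 kb also contain both Tnc regions, so the background is not independent of their fragments. The part of the background in the fragment numbers was not tested. On the scale of fold enrichment, which divides by that background, the values were 6.71, 7.27, 6.52 and 6.07 at 31.3 kb and 5.81, 7.08, 6.59 and 5.35 at 29.4 kb.

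The other Tnc regions held fewer fragments at their summits in every library that called them. A region at the TSS (chr4:64046956-64047121) was called in TGF-β-treated siControl only, with a fold enrichment of 5.14 and 18 fragments. These would be 16.9 fragments at the untreated depth, where 18 were held by 95% of regions at a like background. An equally strong region would thus have fallen below the number usual there. A region 18.5 kb upstream (chr4:64065448-64065626) was called with 23 fragments in TGF-β-treated siControl and 20 with set 1. An intronic region 32.6 kb inside the gene (chr4:64014234-64014581) held 25 fragments untreated, 23 with TGF-β and 22 with set 2, at fold enrichments of 9.1, 6.73 and 6.55, and was not called with set 1. The region 40.9 kb upstream (chr4:64087777-64087955) held 26, 29 and 24 fragments in the untreated, TGF-β and set 1 libraries and was not called with set 2. Its sequence holds 3 AP-1 matches, the most of any member region, whose starts are 12 bases apart.

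Thbs1 encodes thrombospondin-1, a matricellular protein that can activate latent TGF-β, and held 1, 3, 1 and 1 regions. Its regions with TGF-β all lay at the promoter, next to the transcript Gm13986, and the untreated region did not. In TGF-β-treated siControl, the regions lay 1.6 kb (chr2:118110203-118110363), 1.1 kb (chr2:118110615-118110902) and 0.6 kb (chr2:118111183-118111353) upstream of the TSS, with 31, 26 and 22 fragments. The TSS of Gm13986 was nearer to each of them, at 919, 444 and 66 bp, so that the accessibility of these starts cannot be told apart. The middle region was also called with set 1, with 31 fragments, and with set 2, with 22. The region at 1.6 kb was absent from the other 3 lists although its 31 fragments would be 29.1 at the untreated depth, 32.9 at that of set 1 and 39.4 at that of set 2, where 20, 22 and 22 were held by 95% of regions at a like background. The region at 0.6 kb would have reached 20.7 fragments in the untreated library, where 21 were held. The single untreated region (chr2:118094662-118094870), 17.1 kb upstream, held 13 fragments with a fold enrichment of 6.75. Its 13 fragments would be 13.8 in TGF-β-treated siControl, where 14 were held by 95% of regions at a like background. An equally strong region would thus lie just below the number usual there, so its loss was not read as a difference.

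Sparc encodes SPARC (osteonectin), a collagen-binding matricellular protein, and had the most regions of the 10 loci, namely 4, 7, 5 and 4. The upstream window reaches the genes Atox1 and G3bp1, and 2 of the regions lay at their promoters. The region 38.1 kb upstream (chr11:55461134-55461510) was 83 bp from the TSS of Atox1 and had the highest fold enrichment of any member region, 13.6 in TGF-β-treated siControl. It stood at 9.52 untreated, 11.8 with set 1 and 8.03 with set 2, with 24, 38, 39 and 23 fragments in the order untreated, TGF-β, set 1 and set 2. The region 46.3 kb upstream (chr11:55469137-55469735), 249 bp from the TSS of G3bp1, held 38, 47, 36 and 35 fragments. These 2 regions are promoters of other genes. When every region near the TSS of another gene was left out, 9 of the 15 member regions of set 2 remained. This also left out the Fn1 promoter, the Thbs1 promoter region at 1.1 kb and both calls in the Tnc region at 29.4 kb, which lie near other starts.

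The Sparc region nearest to the TSS (chr11:55428054-55428583) lay 5.1 kb upstream and was called in all 4 libraries. Its summit held 26 fragments untreated and 25 with set 2, against 39 in TGF-β-treated siControl and 38 with set 1. Fold enrichment was 9.21, 10.6, 10.8 and 7.68 in the order of libraries. It was higher in TGF-β-treated siControl and with set 1 than in the other libraries. The log2 FPM ratio of TGF-β over untreated was 0.49 (-0.26 to 1.27) and that of set 2 over TGF-β-treated siControl was -0.99 (-1.77 to -0.23). Hence the TGF-β ratio could not be told from 0 and the set 2 ratio could, by counting error alone. The set 2 interval held the genome median of that ratio, -0.67. A region 23.6 kb upstream (chr11:55446731-55446908), in an intron of Atox1, went the other way. It had a fold enrichment of 9.65 untreated, 6.83 with TGF-β and 11.2 with set 1, with 21, 15 and 24 fragments, and the interval of each FPM ratio held 0. The region 21.8 kb upstream (chr11:55444909-55445072) was called with 25 fragments in TGF-β-treated siControl and 17 with set 2, and neither untreated nor with set 1. Its 25 fragments would be 23.5 at the untreated depth, against 13 that were held there by 95% of regions at a like background. Further regions called with TGF-β and not untreated lay 30.6 kb upstream, also in set 1, and 17009 bp inside the gene, in no other library.

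Spp1 encodes osteopontin, a secreted phosphoprotein that binds integrins and CD44, and held 3, 4, 2 and 0 regions. The region at its TSS (chr5:104434928-104435161) held 26 fragments untreated, 28 with TGF-β and 18 with set 1, and was not called with set 2. It also lay 77 bp from the TSS of Gm42793, so that the accessibility of these starts cannot be told apart. Fold enrichment was 7.4, 8.38 and 5.99. The log2 FPM ratio of TGF-β over untreated was thus close to 0, at 0.02 (-0.81 to 0.84), and that of set 1 over TGF-β-treated siControl was -0.72 (-1.66 to 0.18). With set 2, the 28 fragments would be 35.6, and regions at such a background held 19 or more in 95% of cases. A second promoter region 2.0 kb upstream (chr5:104433068-104433260) held 22, 19 and 17 fragments in the same libraries and was also not called with set 2. Far upstream, a region 27.1 kb from the TSS was called in the untreated library only (chr5:104407972-104408134, 25 fragments) and its neighbour at 27.4 kb in TGF-β-treated siControl only (chr5:104407680-104407820, 24 fragments). These calls lie next to each other without overlapping, so they count as 1 lost and 1 gained region, and whether they are 1 accessible site with a moved summit was not tested. The strongest region called with TGF-β and not untreated lay 42.2 kb upstream (chr5:104392887-104393019), with a fold enrichment of 6.67 and 18 fragments.

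Tgfbi encodes the adhesion protein βig-h3, named for its induction by TGF-β, and held 2, 3, 2 and 0 regions. The region 26.7 kb upstream (chr13:56582743-56582949) had the widest change with TGF-β of the 16 member regions called in both siControl libraries. Its summit held 13 fragments untreated, 26 with TGF-β and 21 with set 1, and it was not called with set 2. Fold enrichment was 6.84, 11.8 and 9.83. The log2 ratio of TGF-β over untreated was 0.79 on fold enrichment and 0.91 on FPM, with an interval for the latter of -0.10 to 1.99. Even this ratio could not be told from 0 by counting error. At the depth of set 2, 26 fragments would be 33.0, and regions at such a background held 14 or more in 95% of cases. The printed sequence of this region has 1 AP-1 match near its centre. The promoter region (chr13:56607940-56608118), 1.5 kb upstream, held 17 fragments untreated and 18 with TGF-β and was called with neither siRNA set. A region 43.1 kb upstream (chr13:56566326-56566547) was called with 13 fragments in TGF-β-treated siControl and 17 with set 1.

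Postn encodes periostin, a matricellular relative of the Tgfbi product, and held 1, 2, 1 and 1 regions. The region 3.4 kb upstream (chr3:54357576-54357755) held 22 fragments untreated, 26 with TGF-β and 19 with set 2, and was not called with set 1. Its fold enrichment was 9.12, 9.22 and 6.25. The log2 FPM ratio of TGF-β over untreated was 0.15 (-0.73 to 1.04). The 26 fragments would be 27.6 with set 1, where 17 were held by 95% of regions at a like background. A region 7.6 kb upstream (chr3:54353391-54353546) was called with 14 fragments in TGF-β-treated siControl and 19 with set 1. Its 14 fragments would be 13.2 at the untreated depth, just below the 14 usually held there, so its gain was not read as a difference.

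Vcan, the gene of the proteoglycan versican, held no region untreated, 2 with TGF-β, 2 with set 1 and none with set 2. The region at 36.9 kb upstream (chr13:89779296-89779540), in introns of Xrcc4 and of the antisense gene Gm4117, had a fold enrichment of 9.22 with 20 fragments in TGF-β-treated siControl and 6.70 with 14 fragments with set 1. The 20 fragments would be 18.8 at the untreated depth and 25.4 at that of set 2, where 12 and 14 were held by 95% of regions at a like background. The intronic region 3.1 kb inside the gene (chr13:89739306-89739509) held 19 fragments in TGF-β-treated siControl and with set 1. It lay 53 bp from the TSS of Gm4117, so it marks the start of that antisense transcript as well as an intron of Vcan.

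Lox, which encodes lysyl oxidase, held no region untreated, 4 with TGF-β, 1 with set 1 and none with set 2. All 4 lay upstream, in an intron of the antisense gene AC161119.1. They lay 41.2 kb (chr18:52570963-52571115), 34.6 kb (chr18:52564384-52564534), 29.1 kb (chr18:52558768-52559171) and 5.6 kb (chr18:52535376-52535609) from the TSS, with 16, 21, 19 and 16 fragments. The region at 29.1 kb was also called with set 1, with 20 fragments. The strongest by fold enrichment was the one at 34.6 kb, with 7.83. Its 21 fragments would be 19.7 untreated, where 15 were held by 95% of regions at a like background. At equal list length no Lox region was left in any library, since all were among the weaker calls.

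Vim, the vimentin gene, held 1 region untreated, 5 with TGF-β and 3 in each siRNA library. The untreated region (chr2:13526210-13526509) lay 47.6 kb upstream in an intron of Trdmt1 and was called in all 4 libraries, with 21, 32, 22 and 18 fragments. Its fold enrichment was 8.72, 10.3, 8.31 and 6.41. It was highest in TGF-β-treated siControl, and the log2 FPM ratio was 0.52 (-0.32 to 1.39) for TGF-β over untreated, -0.63 (-1.48 to 0.20) for set 1 and -1.17 (-2.09 to -0.30) for set 2, both over TGF-β-treated siControl. The promoter region 0.3 kb upstream (chr2:13573504-13573719) was called in the 3 libraries with TGF-β, with 24 fragments in siControl, 32 with set 1 and 22 with set 2. A second promoter region 1.8 kb upstream (chr2:13572088-13572266) was called in TGF-β-treated siControl only, with 23 fragments.

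The Vim regions 16.6 kb (chr2:13557246-13557411) and 15.2 kb (chr2:13558660-13558857) upstream each held 32 fragments in TGF-β-treated siControl and were not called untreated. Scaled to the untreated depth they would hold 30.1 fragments, where 21 and 20 were held by 95% of regions at a like background. They were the member regions with the most fragments among those called with TGF-β and not untreated. The region at 15.2 kb was called with 19 fragments with set 1 and 21 with set 2. Its log2 FPM ratio over TGF-β-treated siControl was -0.84 (-1.74 to 0.02) for set 1 and -0.95 (-1.82 to -0.11) for set 2. The region at 16.6 kb was called with neither set. All 5 Vim regions hold an AP-1 match, and the promoter sequence holds 2 of them, TGAGTCA and TGACTCA, within a few bases of each other.

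**Figure D2:**
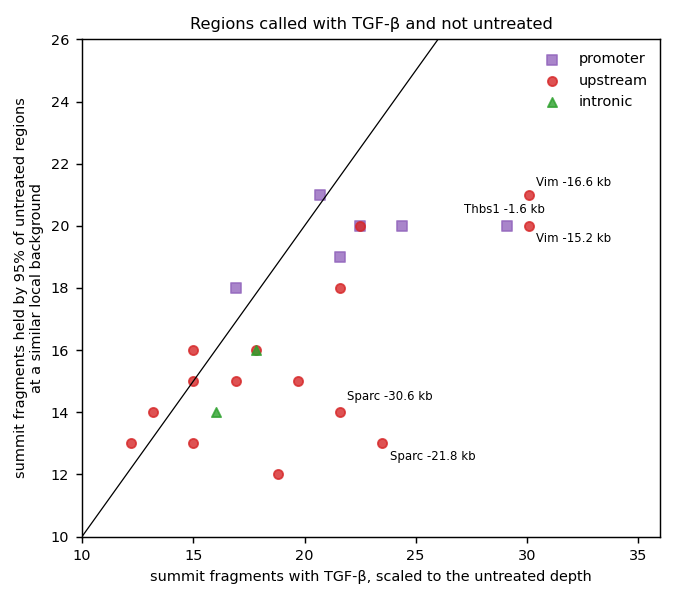
Each of the 23 member regions called in TGF-β-treated siControl and not untreated, with its summit fragments scaled to the untreated depth (x axis) against the number that 95% of untreated regions at a similar local background held (y axis), and points that coincide drawn over each other. Points on or to the right of the diagonal, 18 of 23, reached that number, and the Vim regions at 30.1 scaled fragments lie farthest to the right.

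The TGF-β comparison asked which regions opened or closed at these genes. Of the 39 member regions of TGF-β-treated siControl, 23 (59.0%) overlapped no untreated region, where the share over the whole list was 37.0%. These gained regions fell in all 10 genes. Of the 18 untreated regions, 2 (11.1%) overlapped none with TGF-β, against 18.4% of the whole list, and these lay at Spp1 and Thbs1. Gained member regions had a median of 21 fragments and the rest 29. More regions with TGF-β than without were called at 10 of 10 genes, where this held at 30.8% of all protein-coding loci, at 43.1% of those with a region in either library and at 54.2% of the loci with 2 or more regions in TGF-β-treated siControl. Fewer were called at none of the 10 (11.9% of all loci). The difference was 4 regions at Vim and Lox, 3 at Sparc, 2 at Tnc, Thbs1 and Vcan, and 1 at the other 4 genes. Lox and Vcan went from no region to 2 or more, as did 1.58% of protein-coding loci. These counts depended on the length of the lists. At equal length more regions were called with TGF-β at 4 of 10 genes (16.0% of all loci), namely Sparc, Thbs1, Vim and Vcan, while Tnc went from 4 to 2 regions and Spp1 from 2 to 1. Gained member regions then numbered 7 of 17 (41.2%, against 34.4% of the whole list) and lost ones 5 of 15 (33.3%, against 34.3%).

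**Figure D3:**
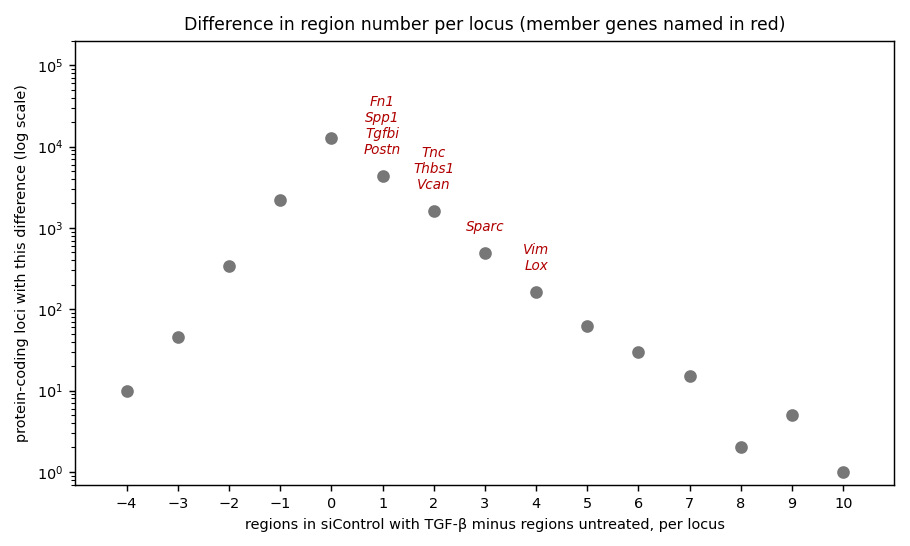
Number of protein-coding loci (y axis, log scale) at each difference in region number between TGF-β-treated siControl and untreated (x axis, regions per locus), with the 10 genes named above the point of their difference. All 10 stand at 1 to 4, and 1 locus at a difference of 26 lies beyond the axis.

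The siRNA comparisons asked which of these regions were still called in TGF-β-treated cells after Etv4 and Etv5 had been targeted. Both share the siControl list with TGF-β with each other and with the TGF-β comparison. With set 1, 15 of the 39 regions (38.5%) were absent, against 33.6% of the whole list, at 8 of the genes. With set 2, 25 of 39 (64.1%) were absent, against 53.6%, at all 10. In the other direction, none of the 24 regions of set 1 was missing from TGF-β-treated siControl, where 15.2% of its list were. With set 2 it was 1 of 15 (6.67%), against 10.3%, and this was a second call inside the merged Tnc region at 29.4 kb. Fewer regions than in TGF-β-treated siControl were called with set 1 at 8 of 10 genes (32.7% of all protein-coding loci, and 57.1% of those with 2 or more regions in TGF-β-treated siControl), with Fn1 and Vcan at equal numbers. With set 2 this held at 10 of 10 genes (47.7%, and 80.4%). No gene had more regions with set 1 or set 2 than in TGF-β-treated siControl, where 9.51% and 3.61% of all loci had. At equal list length, fewer were called at 6 of 10 genes with set 1 (17.1% of loci) and at 4 of 10 with set 2 (18.7%). Of the 17 member regions of TGF-β-treated siControl, 9 were then absent with set 1 (31.4% of the whole list) and 6 with set 2 (33.4%). Regions added were 3 of 11 with set 1 (31.4%) and 4 of 15 with set 2 (33.0%). Tnc then had 2 regions in TGF-β-treated siControl and 4 with set 2, and the latter include the second call inside the merged region at 29.4 kb.

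**Figure D4:**
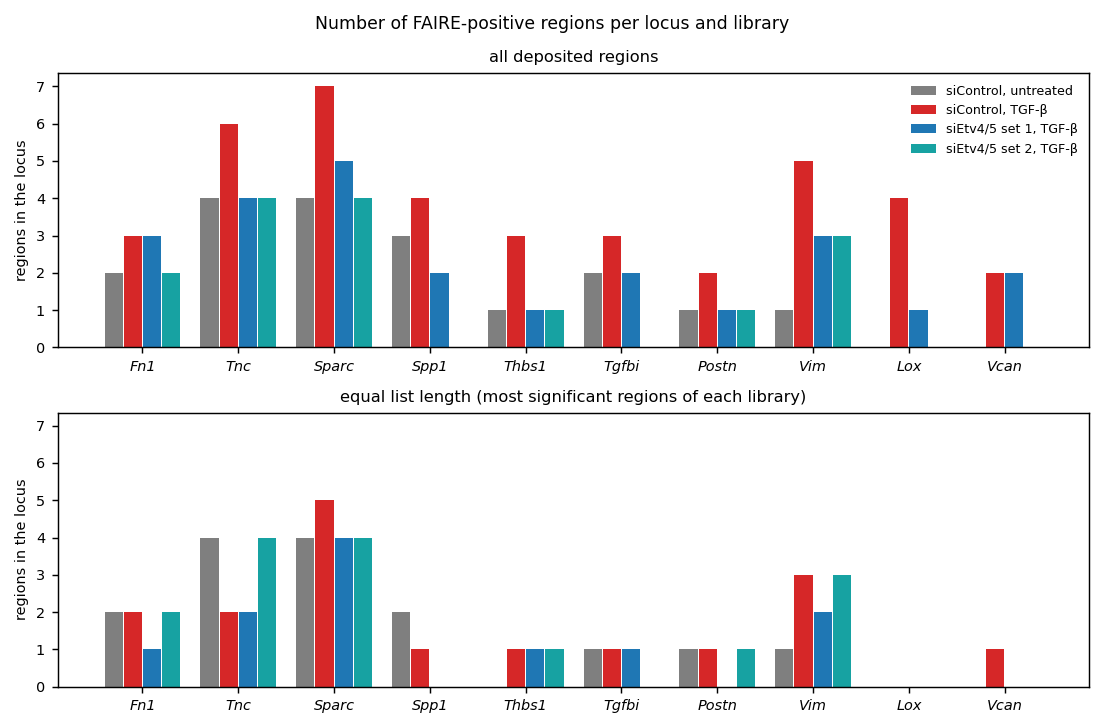
Number of FAIRE-positive regions (y axis) at each of the 10 genes in the 4 libraries, over the deposited lists (top) and over the 14925 most significant regions of every library (bottom). In the top panel the bar of TGF-β-treated siControl is the highest or equal highest at every gene, and in the bottom panel it is below the untreated bar at Tnc and Spp1.

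For a region that was not called, the lists give no value, so a weaker signal and none cannot be told apart. Nor can fewer cells with an open site and less opening per cell in such bulk samples. A call was therefore set against the fragments usual in the other library. Of the 23 gained member regions, 18 (78.3%) would, at the untreated depth, have reached the number held by 95% of untreated regions at a like background, against 92.8% over the genome. The 5 that would not lay at Fn1, Tnc, Thbs1, Tgfbi and Postn. Among regions absent with set 1, 14 of 15 would have reached it (95.4% over the genome), and with set 2 all 25 (99.9%). Of the 2 lost regions, 1 would have reached it with TGF-β (86.6%). Reaching this number says only that the scaled fragments were as many as called regions usually held there. It leaves out counting error, which matters at the margin. The Lox region at 5.6 kb, for example, had 15.0 scaled fragments against 15 held untreated. Most regions of the genome reached the number too, so reaching it does not show that a site was closed or how much weaker it was.

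By library, 8 of the 41 merged regions (19.5%) were called in all 4, against 29.6% of regions over the genome. These were the Fn1 promoter and the Fn1 region at 38.5 kb, the Tnc regions at 31.3 and 29.4 kb, the Sparc regions at 46.3, 38.1 and 5.1 kb, and the Vim region at 47.6 kb. Regions called in TGF-β-treated siControl only numbered 11 (26.8%, against 16.1% over the genome). Regions called in TGF-β-treated siControl and with set 1 numbered 8 (19.5%, against 8.19%), at Fn1, Tnc, Sparc, Tgfbi, Postn, Lox and Vcan. The 3 regions called in the 3 TGF-β libraries and not untreated were the promoter regions of Thbs1 at 1.1 kb and Vim at 0.3 kb and the Vim region at 15.2 kb (7.32%, against 3.78%). No member region was called only in siRNA libraries.

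Strength was compared at regions called in both libraries of a pair. Over the 16 regions called in both siControl libraries, the median log2 ratio of fold enrichment with TGF-β over untreated was 0.03 and ranged from -0.50 to 0.79, where the median over 18082 regions of the genome was 0.12. It was above 0 at 10 regions and below at 6, where it was above 0 at 65.4% of regions of the genome and below at 34.6%. No interval of a member's FPM ratio lay off 0, and over the genome 2.12% lay above and 0.149% below. With set 1 over TGF-β-treated siControl, the median log2 ratio of fold enrichment over 24 regions was -0.06 (range -0.54 to 0.71), against -0.16 over the genome. It was higher at 11 and lower at 13 of them, where 28.5% of the genome was higher and 71.5% lower. Again no member interval lay off 0 (4.05% of the genome below and 0.0578% above). With set 2, the median over 14 regions was -0.41 (range -0.76 to 0.02), against -0.38, and 13 of 14 were lower (89.4% of the genome). The log2 FPM ratio with set 2 was below 0 at 14 of 14 regions, as at 96.7% of regions of the genome. Its interval lay below 0 at 8 of 14 (33.2% of the genome) and above 0 at none (0.00751%): both Tnc regions, the 3 Sparc regions and the Vim region called in all 4 libraries, the Fn1 promoter and the Vim region at 15.2 kb. Summed over each set of regions, the log2 FPM ratio was 0.19 (0.0 to 0.39) for TGF-β, -0.21 (-0.38 to -0.05) for set 1 and -0.83 (-1.04 to -0.62) for set 2. The medians of the single log2 FPM ratios were 0.11, -0.27 and -0.81 at the members and 0.13, -0.24 and -0.67 over the genome.

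**Figure D5:**
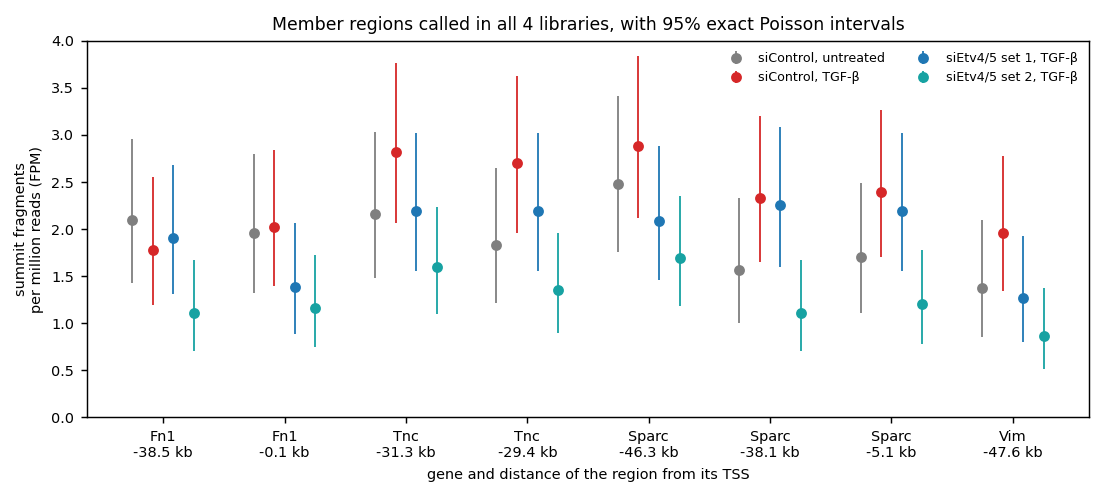
Summit fragments per M reads of estimated depth (y axis) at the 8 member regions called in all 4 libraries (x axis, gene and distance from the TSS), with 95% exact Poisson intervals that cover counting error only. The set 2 point is the lowest at each region, and the intervals of the untreated and TGF-β points overlap at each region.

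Other genes of the matrix were counted in the same way, from a list of 59 genes that includes fibrillins, fibulins, the CCN family, small leucine-rich proteoglycans and the Lox-like enzymes. Together they held 140 regions untreated, 197 with TGF-β, and 159 and 103 in the set 1 and set 2 libraries. A promoter region was called at 12, 17, 12 and 6 of these 59 genes, against 36.1%, 38.1%, 34.2% and 27.3% of all protein-coding genes. More regions with TGF-β than untreated were called at 32 of 59 (30.8% of all protein-coding loci) and fewer at 8 (11.9%). Fewer than in TGF-β-treated siControl were called with set 1 at 29 (32.7% of all loci) and more at 5 (9.51%). With set 2, fewer were called at 41 (47.7%) and more at 1 (3.61%). The order of the 4 libraries was therefore that of the 10 genes, and of the lists as a whole.

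An AP-1 match lay in the 300 bases around the summit in 22 of the 41 member regions (53.7%), where it lay in 40.4% of 35789 regions of the genome, from which the 7 mitochondrial ones were left out. ETS matches lay in 12 (29.3%, against 32.4%), RUNX matches in 13 (31.7%, against 25.8%) and TEAD matches in 11 (26.8%, against 21.9%). The palindromic SMAD element GTCTAGAC lay in none, as in all but 0.316% of regions. Among the 23 regions called with TGF-β and not untreated, 16 held AP-1 (52.1% over the genome) and 6 held ETS (28.6%), and among the 16 shared ones 6 held AP-1 (38.4%) and 6 held ETS (35.9%). Among the 12 regions of TGF-β-treated siControl that both siRNA sets lacked, 10 held AP-1 (44.2% over the genome) and 5 held ETS (28.3%). Among the 11 regions that both sets kept, 4 held AP-1 (41.7%) and 4 held ETS (37.7%). The AP-1 match was thus the more frequent motif among the member regions called with TGF-β and not untreated. Over all regions of a gene it was most frequent at Vim with 5 of 5 regions, Lox with 3 of 4, Tgfbi with 2 of 3 and Spp1 with 3 of 5. A motif match describes the letters of a window and does not show that a factor was bound. In 2 windows, matches to different motifs overlapped. The median GC content of the windows was 47.0% at the members and 49.7% over the genome.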

How the data were processed

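FAIRE-seq of EpRas cells gave 1 region list for each of 4 groups, taken from the sample labels. The authors sequenced on an Ion Proton, trimmed reads to 36 bp, used bowtie2 for mapping to mm10 and MACS2 (2.1.0 in the submitters' processing notes) for calling, at a q-value limit of 0.0001. Each deposited list gives a fold enrichment (a ratio), -log10 of the p-value, -log10 of the q-value, a score derived by the authors' caller from the latter, and the summit position.

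Summit fragments and local background were solved from the deposited fold enrichment, with a pseudocount of 1, and the p-value, which was returned within 0.001 in 100% of regions. Depth was estimated from the background floor and a genome size of 1.87 Gb. Regions were shared at an overlap of 1 bp. Background was called similar within 10%. Intervals are exact (Poisson, or Clopper-Pearson conditional on the sum), at 95%, and cover counting error only, since reads are not independent molecules. Genes and TSSs came from GENCODE vM21 basic. The code was tested on simulated data and run in Python 3.11.15 with numpy 2.4.6, scipy 1.17.1 and pandas 2.3.3.

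Regions were named one by one if they lay at a promoter, were called in most libraries or had a fold enrichment of 10 or more. The strongest region of each gene gained or lost with TGF-β was also named. The remaining regions named were picked after their values were seen. The members and lists were chosen with earlier results of these data known. Alternatives covered the q-value limit, list length, windows of 20 and 100 kb, a promoter window of 1 kb, an overlap of 50% and the measure of strength.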

Additional observations from a re-analysis of the deposited data

How the results depend on the processing

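Of 101 alternative values under 9 settings, 68 stayed close to the values given, 32 moved and 1 changed sign. A stricter limit on the q-value (-log10 q of at least 6) could remove no member region, since the lowest stood at 6.77, and says nothing about stability. At equal list length the loci held 17 regions with TGF-β and 11 with set 1, or 1.94 and 1.26 per 100 kb, and 3 and 2 genes had a promoter region. Gained regions then numbered 7 (34.4% of the whole list) and lost ones 5 (34.3%), regions absent with set 1 and set 2 numbered 9 (31.4%) and 6 (33.4%), those added 3 (31.4%) and 4 (33.0%), and 4 genes had more regions with TGF-β (16.0% of all loci) and 4 fewer with set 2 (18.7%). With 20 kb upstream, the loci held 8, 21, 11 and 7 regions (untreated, siControl with TGF-β, set 1, set 2), with 14 gained, 1 lost, 14 absent with set 2 and 0 added with set 2. With 100 kb they held 31 untreated, 37 with set 1 and 25 with set 2, with 4 lost, 2 added with set 1 and 2 added with set 2. Without regions at promoters of other genes, which include member promoters near another TSS, 9 regions with set 2 were left and 0 were added. The median log2 ratio of fold enrichment for set 1 became 0.02 within 20 kb, a change of sign. On summit fragments per M reads it was -0.27 for set 1 and -0.81 for set 2. The causes were not tested, except that shorter lists and windows hold fewer regions by construction. Leaving out regions at promoters of other genes, and the counts of genes with more or fewer regions, were chosen after the data were seen. No paired analysis was possible because the labels give no replicate numbers and each group has 1 list, so no replicate could be left out either. Summits of 13 to 47 fragments limit the precision, and no member region called in both siControl libraries differed between them beyond counting error.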
